A study of Rattus norvegicus with 7 samples.

Results

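The 33 gene models described here are the vomeronasal type 1 receptor (V1R) models of rat chromosome 1 whose start lies between 62 and 69 Mb on the genome build RGSC3.4. They were chosen by position alone, from the 224 V1R models that stand at the head of the annotation used for counting, which holds 29630 models in all. Of the 33, 17 are intact receptor genes and 16 are pseudogenes. The 16 pseudogenes carry names that the authors gave (NG_Vom1rn-ps24 and so on). The 17 intact models carry Ensembl identifiers only, so that their class was read from their place in the annotation.

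RNA was measured by sequencing polyA-selected transcripts of the vomeronasal epithelium, the sensory lining of a chemosensory organ in the nose. The animals were 7 male rats of the inbred strain LEW/Crl (Lewis), aged 8 weeks, and each gave a single library. All received the same handling, with the blood flushed out before dissection, and none carried a genetic change or another treatment that the labels name. The design therefore holds 1 group, and its comparisons are between gene models within the same animals. A bulk library sums over all cells of the tissue, so that fewer cells expressing a receptor and less RNA per cell cannot be told apart.

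V1R proteins are G protein-coupled receptors of the sensory neurons in the apical layer of the vomeronasal epithelium, where they detect pheromones and other chemical cues. Signals pass through the G protein subunit Gαi2 to the cation channel TRPC2. Each neuron is thought to express a single V1R gene, so that the level of a receptor in bulk tissue depends on how many neurons chose it and on how much RNA each of them makes. The genes arose by repeated duplication, lie in clusters, and have a coding sequence that is not interrupted by introns. Many copies have decayed into pseudogenes, which no longer encode a full receptor.

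Each library gave between 64085829 and 74924005 counts on gene models, and 1 CPM (a count scaled to the library total) stood for 64.1 to 74.9 counts. A count of 0 allows up to 3 counts, which is between 0.0400 and 0.0468 CPM for a given rat, or 0.00622 CPM for the 7 rats together. Such limits cover counting error only. In all 21 pairs of libraries the counts differed by more than counting noise (chi-square at least 11.9 times its degrees of freedom), and each rat was kept as a replicate of its own. Across the 17 intact models the rank order of the levels was similar in these pairs of rats, where Spearman's rho ran from 0.976 to 0.998. The models are not independent replicates, and this is a description.

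The 33 models covered 5.65 Mb, from 62527478 to 68177507, and fell into 4 blocks set apart by more than 500 kb. The first block, at 62527478–63287126, held 18 models, of which 8 were intact. The second, at 64703213–65073759, held a single intact model between a pair of pseudogenes. The third, at 66933569–67408207, held 11 models, of which 7 were intact. The last consisted of ENSRNOG00000034260 alone, at 68176590–68177507. The nearest V1R model outside lay 2.696 Mb before the span and 1.84 Mb after it.

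Every intact model was a single exon of 861 to 963 bases, and the length of 17 of 17 was divisible by 3, as for coding sequence without untranslated regions. The modal length, 918 bases, was shared by 6 intact models and by 3 pseudogenes. Pseudogenes ranged from 49 to 953 bases (median 759), and 8 of 16 had a length divisible by 3. All but 1 pseudogene had a single exon, and 3 were shorter than 200 bases. Of the intact models 9 lay on the plus strand and 8 on the minus strand. Along the chromosome they formed 6 runs of the same strand, the longest with 5 models. A model that is no V1R gene, ENSRNOG00000038862, spanned 4 intact members and 2 pseudogenes of the first block but lies on the other strand. Counting was by strand.

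Counts were credited to nearly all intact receptors of the region and to few of its pseudogenes. A model is called detected where at least 10 counts were found in at least 4 of the 7 rats. Of the 17 intact models 16 were detected (94.1%), against 93.6% of all intact V1R models and 56.3% of all gene models. Of the 16 pseudogenes 2 were detected (12.5%), against 13.9% of all V1R pseudogenes. Both shares lay near their background. Reads shared between copies enter these counts. Of the 9 intact models with whole counts in every rat 8 were detected, all but ENSRNOG00000032657. Of the 12 pseudogenes with whole counts 0 were detected. The same shares over all V1R models with whole counts were not computed. Among intact V1R models outside the region 86 of 92 were detected (93.5%), and among pseudogenes outside it 14 of 99 (14.1%). Of the 135 models in the span that are no V1R genes, 78 were detected (57.8%).

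**Figure D1:**
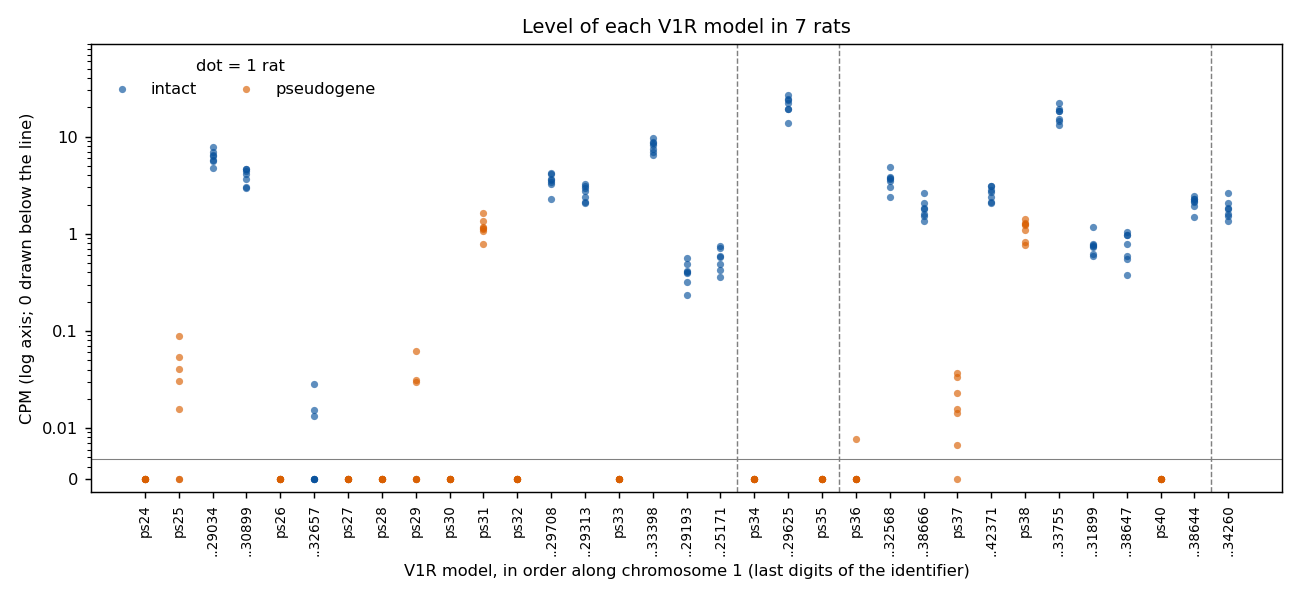
Level of each of the 33 models in CPM (log axis, with 0 drawn below the line), in order along chromosome 1, with a dot per rat and dashed lines between the 4 blocks. The 16 detected intact models lie above 0.2 CPM in every rat, and the detected pseudogenes are NG_Vom1rn-ps31 and NG_Vom1rn-ps38.

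The highest levels of the region were those of a pair of receptors that lie 2556 kb apart. ENSRNOG00000029625, the isolated gene of the second block (64752662–64753594, minus strand), had a lowest level of 13.8 CPM, a median of 22.1 and a highest of 26.5, with a mean of 21.3 ± 4.23 (SD, n = 7). It was lowest in rat 6 and highest in rat 7. The nearest other intact V1R model lay 1466 kb away. The pseudogenes on either side of ENSRNOG00000029625, NG_Vom1rn-ps34 at a distance of 47.97 kb and NG_Vom1rn-ps35 at 320 kb, had no count in any rat. ENSRNOG00000033755 of the third block (67309537–67310451, minus strand) had 13.1, 18.4 and 22.1 CPM as its lowest, median and highest level, with a mean of 17.3 ± 3.21 (SD, n = 7). It too was lowest in rat 6 and highest in rat 7. These models held 49.7% of the counts of the intact members. Per length they stood at ranks 2 and 4 of the 109 intact V1R models.

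ENSRNOG00000033398 (63198769–63199686, plus strand) followed, with 6.54, 8.20 and 9.68 CPM (mean 8.00 ± 1.09, SD, n = 7). ENSRNOG00000029034 (62590085–62591035, minus strand) had 4.72, 6.28 and 7.84 CPM (mean 6.25 ± 1.01). Both belong to the first block, and with the leading pair they made up 68.2% of the counts of the intact members. ENSRNOG00000030899 (62690312–62691226, minus strand) had 2.97, 4.10 and 4.69 CPM (mean 3.93 ± 0.729). ENSRNOG00000032568 (66983686–66984603, plus strand) had 2.41, 3.65 and 4.91 CPM (mean 3.59 ± 0.768). Rat 6 gave the lowest value of all 4 models, whereas the highest came from rats 2, 7, 4 and 3 in that order.

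The remaining detected receptors were lower. In the first block ENSRNOG00000029708 had 3.50 ± 0.652 CPM and ENSRNOG00000029313 had 2.66 ± 0.468 (SD, n = 7). In the third block ENSRNOG00000042371 had 2.62 ± 0.434 CPM and ENSRNOG00000038644 had 2.11 ± 0.312. Under 1 CPM on average were ENSRNOG00000031899 (0.776 ± 0.196), ENSRNOG00000038647 (0.752 ± 0.253), ENSRNOG00000025171 (0.556 ± 0.142) and ENSRNOG00000029193 (0.404 ± 0.108). The last was the lowest detected receptor, with 0.234, 0.401 and 0.565 CPM as its lowest, median and highest level. The 8 lowest detected models held 14.1% of the counts of the intact members. Over the 17 intact models the median was 2.85 RPKM (CPM per kilobase of model length), against 3.23 for the 92 intact V1R models outside and 0.682 for all gene models.

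The single intact receptor that was not detected was ENSRNOG00000032657 (62874936–62875841, minus strand), in the first block. It had 1 count in rat 3, 2 in rat 5, 1 in rat 7 and none in the other 4 rats, a mean of 0.00817 CPM. It lies among pseudogenes: its nearest intact neighbour was 183.7 kb away, and NG_Vom1rn-ps27, 46.8 kb away, had no count.

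Whether the order of the levels held in every animal was tested between neighbours in the order of mean RPKM. The difference in log2(RPKM + 0.1) was taken within each rat and tested with an exact two-sided sign-flip permutation test over the 7 rats, and the p-values were adjusted over the 15 pairs. The order was taken from the same values, so that directions are descriptions. The test asks whether a difference recurred between rats. A bias in a model's counts that is alike in all rats would pass it too, and such a bias was not tested. Of 15 pairs of neighbours 7 differed, each in 7 of 7 rats (adjusted exact permutation p = 0.0335, from p = 0.0156, the smallest that 7 rats can give). These gaps made the upper end of the order distinct. ENSRNOG00000029625 exceeded ENSRNOG00000033755 by 0.26 ± 0.11 on the log2 scale (SD, n = 7), with means of 22.8 and 18.9 RPKM. ENSRNOG00000033755 exceeded ENSRNOG00000033398 (8.72 RPKM) by 1.10 ± 0.12. ENSRNOG00000033398 in turn exceeded ENSRNOG00000029034 (6.57 RPKM) by 0.41 ± 0.13, and the latter exceeded ENSRNOG00000030899 (4.29 RPKM) by 0.61 ± 0.15. The counts of ENSRNOG00000033398 held fractions of shared reads in 7 of 7 rats, so that the gaps on either side of it can depend on how these were split.

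Below these the order was only partly resolved. ENSRNOG00000030899, ENSRNOG00000032568 (3.91 RPKM) and ENSRNOG00000029708 (3.81 RPKM) did not differ beyond their spread. The differences in this group were 0.14 ± 0.27 (adjusted exact permutation p = 0.320) and 0.03 ± 0.23 (0.847). ENSRNOG00000029708 exceeded ENSRNOG00000029313 (2.86 RPKM) by 0.40 ± 0.22, and the latter was not told from ENSRNOG00000042371 (2.85 RPKM, adjusted exact permutation p = 1). ENSRNOG00000042371 exceeded ENSRNOG00000038644 (2.28 RPKM) by 0.31 ± 0.17. The widest step below these separated ENSRNOG00000034260 (1.99 RPKM) from ENSRNOG00000031899 (0.850 RPKM), by 1.14 ± 0.32. ENSRNOG00000038644 was not told from ENSRNOG00000038666 (1.99 RPKM, 0.20 ± 0.26, adjusted exact permutation p = 0.156), whose counts equal those of ENSRNOG00000034260. The difference of 0 between ENSRNOG00000038666 and ENSRNOG00000034260 was fixed by these equal counts. Their places in the order, and the steps on either side, depend on how the shared reads were split. With this pair summed as a single model, 7 of 14 pairs of neighbours differed. Fractions of shared reads were also held by ENSRNOG00000032568, ENSRNOG00000029708, ENSRNOG00000029313, ENSRNOG00000042371 and the lowest model, ENSRNOG00000029193. Among the 4 lowest models no neighbours differed, with adjusted exact permutation p-values of 0.547, 0.164 and 0.146 in the order of the levels. From the highest to the lowest detected model the mean RPKM spanned 48.6-fold. With any of the 7 rats left out 0 of 15 pairs passed, since 7 pairs at the smallest exact permutation p that 6 rats allow (0.0312) cannot pass after adjustment.

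**Figure D2:**
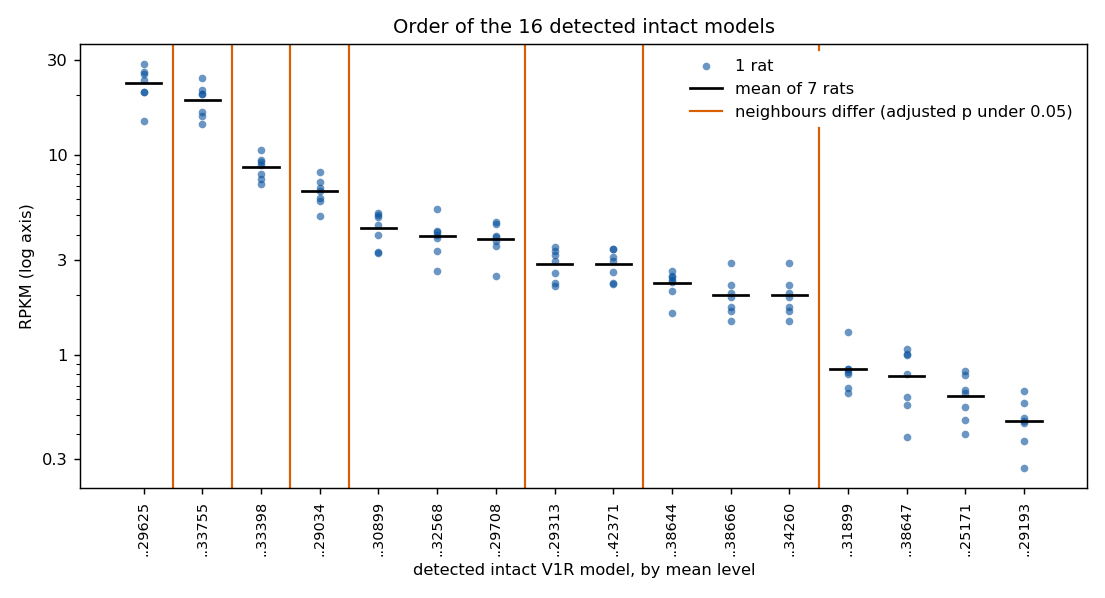
RPKM (log axis) of the 16 detected intact models in order of their mean, with a dot per rat and a bar for the mean of 7 rats. The 7 vertical lines mark neighbours that differed, 4 of them between the 5 highest models.

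Most receptors next to each other on the chromosome differed in credited level, some of them widely. This comparison was added after seeing the data. Of the 15 pairs of detected intact models that are neighbours by position, 11 differed in 7 of 7 rats (adjusted exact permutation p = 0.0213, from p = 0.0156). The 15 pairs lie 15.6 to 2230 kb apart. As above, a bias alike in all rats would pass this test. Among the 11, whole counts on both sides were held by ENSRNOG00000029034 with ENSRNOG00000030899, and by ENSRNOG00000025171 with ENSRNOG00000029625. The same holds for ENSRNOG00000033755 with ENSRNOG00000031899, and for ENSRNOG00000038647 with ENSRNOG00000038644. Every other pair that differed, those with ENSRNOG00000038666 included, has a model with fractions of shared reads. Differences in such pairs can depend on how these reads were split. ENSRNOG00000033398 had 18.6 times the RPKM of ENSRNOG00000029193, whose edge lies 17.0 kb away on the same strand (3.98 ± 0.25 on the log2 scale, SD, n = 7). Fractions of shared reads were held by both models of this pair. ENSRNOG00000033755 had 22.2 times the RPKM of ENSRNOG00000031899, 48.1 kb away on the same strand (4.33 ± 0.28). In both pairs the lowest value of the higher model lay above the highest of the lower model.

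Smaller steps were found between other close neighbours. ENSRNOG00000033398 had 3.05 times the RPKM of ENSRNOG00000029313 at a distance of 43.6 kb. ENSRNOG00000038644 had 2.92 times that of ENSRNOG00000038647 at 20.8 kb, on the same strand. ENSRNOG00000029708 had 1.34 times that of ENSRNOG00000029313 at 15.6 kb. Of the 9 pairs under 100 kb apart 7 differed, by 0.40 to 4.33 on the log2 scale. The other 2 of these 9 were ENSRNOG00000031899 with ENSRNOG00000038647 (26.0 kb, 0.14 ± 0.40, adjusted exact permutation p = 0.438) and ENSRNOG00000029193 with ENSRNOG00000025171 (68.7 kb, 0.35 ± 0.39, adjusted exact permutation p = 0.0977). As a description, the median size of the difference was 0.94 for neighbours by position and 1.67 over all 120 pairs of detected intact models.

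Summed by block, the first 3 blocks lay between 21.3 and 28.95 CPM. The intact models of the first block summed to 25.3 ± 3.79 CPM (SD, n = 7), those of the third to 28.95 ± 5.02, and the lone gene of the second gave 21.3 ± 4.23. In shares of the intact members' counts these were 32.8%, 37.4% and 27.4%, and the isolated ENSRNOG00000034260 held 2.35%. The counts of ENSRNOG00000034260 equal those of ENSRNOG00000038666 in the third block, so that the shares of the third block and the last depend on how shared reads were split.

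Few counts were credited to the region's pseudogenes, and nearly all of these to a pair of models. NG_Vom1rn-ps31 (63085240–63086184, plus strand, 945 bases) had 0.777, 1.14 and 1.65 CPM as its lowest, median and highest level (mean 1.18 ± 0.269, SD, n = 7), lowest in rat 6 and highest in rat 2. NG_Vom1rn-ps38 (67171835–67172385, minus strand, 551 bases) had 0.765, 1.23 and 1.41 CPM (mean 1.12 ± 0.246), lowest in rat 1 and highest in rat 3. They held 97.1% of the pseudogenes' counts. All 16 pseudogenes together took 2.98% ± 0.273 of the counts of the 33 models (SD, n = 7), between 2.55% and 3.39% in a rat.

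Per length NG_Vom1rn-ps31 reached 1.25 RPKM and NG_Vom1rn-ps38 reached 2.04 RPKM, above 4 and 6 of the detected intact models of the region. The 6 include ENSRNOG00000038666 and ENSRNOG00000034260 (1.99 RPKM each), which have equal counts in every rat. If a single gene made their RNA, it would stand above NG_Vom1rn-ps38. Each of these pseudogenes was set against the nearest intact member, a comparison also added after seeing the data. ENSRNOG00000029708, 51.6 kb from NG_Vom1rn-ps31, had 3.05 times its RPKM (1.54 ± 0.21 on the log2 scale, higher in 7 of 7 rats, exact permutation p = 0.0156). ENSRNOG00000042371, 18.2 kb from NG_Vom1rn-ps38, had 1.40 times its RPKM (0.48 ± 0.16, higher in 7 of 7 rats, exact permutation p = 0.0156). With both tests adjusted together the p-value is the same. Both pseudogenes held fractions of shared reads, as described below, so that their own transcription is uncertain.

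The other 14 pseudogenes were at or near 0. In 10 of them no rat had a count, among them NG_Vom1rn-ps27, NG_Vom1rn-ps32 and NG_Vom1rn-ps33, each as long as the modal intact gene (918 bases). NG_Vom1rn-ps32 lay 15.6 kb and NG_Vom1rn-ps33 19.0 kb from the nearest intact member, both of which were detected. Of the 9 pseudogenes of at least 700 bases 1 was detected. Low counts were found in 4 more, with at most 6 in a rat: NG_Vom1rn-ps25 averaged 0.0326 CPM and was seen in 5 rats, NG_Vom1rn-ps37 0.0186 CPM in 6 rats, NG_Vom1rn-ps29 0.0175 CPM in 3 rats, and NG_Vom1rn-ps36 had 0.5 counts in 1 rat. NG_Vom1rn-ps37 has 49 bases and lies 1.22 kb from ENSRNOG00000042371.

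Similar copies limit what these levels say of a single gene. Reads with more than 1 mapping place were split into fractions, so that a model with whole counts in every rat held no such read that left a fraction. Among intact members 9 of 17 had whole counts in every rat, and they held 68.3% of the intact members' counts, ENSRNOG00000029625, ENSRNOG00000033755, ENSRNOG00000029034 and ENSRNOG00000030899 among them. The other 8, ENSRNOG00000033398 included, and 4 pseudogenes held fractions.

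ENSRNOG00000038666 (67115748–67116665, minus strand) and ENSRNOG00000034260 (68176590–68177507, plus strand) had equal counts in 7 of 7 rats. They lie 1.06 Mb apart in opposite orientation and both have 918 bases. Each was credited with 1.35 to 2.63 CPM (median 1.79, mean 1.83 ± 0.425, SD, n = 7), which is 3.66 ± 0.849 CPM for the pair. The counts cannot tell whether the RNA came from both genes or from a single one.

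In the third block and the last, the fractions added up to whole reads. In ENSRNOG00000038666, ENSRNOG00000034260, ENSRNOG00000042371 and NG_Vom1rn-ps38 the fractions came in steps of 0.25, and in ENSRNOG00000032568, NG_Vom1rn-ps36 and NG_Vom1rn-ps37 in steps of 0.5. Summed over these 7 models, the counts were whole in 7 of 7 rats (531 in rat 6 to 984 in rat 3, tolerance 0.02). In the first block 5 models held fractions (ENSRNOG00000029708, ENSRNOG00000029313, ENSRNOG00000033398, ENSRNOG00000029193 and NG_Vom1rn-ps31). Their sums were whole in 1 of 7 rats, so that in the other 6 rats at least some of their shared reads also mapped to models or places outside these 5.

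The region's share of the V1R signal was nearly constant between rats while its level was not, as in the other groups of V1R models. The summed level of the 17 intact models had a lowest value of 56.0 CPM in rat 6, a median of 81.9 and a highest of 94.0 in rat 7 (mean 77.3 ± 13.3, SD, n = 7), a 1.68-fold range. That is 0.00773% ± 0.00133 of all counts, and 0.0142% with the 10 most abundant models left out of the total. Their share of all intact V1R counts had a lowest value of 14.5% in rat 5, a median of 14.8% and a highest of 15.3% in rat 2 (mean 14.9% ± 0.347), a 1.06-fold range. CPM is scaled to the library total alone. The TMM factors of edgeR were 1.10 in rat 7, 0.969 in rat 6 and 0.943 in rat 1, so that the range of the level depends on the scaling. The share does not. The 17 models are 15.6% of the 109 intact V1R models. Among the 39 intact V1R models with whole counts in every rat, the 9 of this region (23.1%) took 38.9% of the counts. The 29 intact V1R models of chromosome 1 between 49 and 60 Mb took 26.2% ± 0.435, and the 22 between 71 and 74 Mb took 27.5% ± 0.296. The levels of these groups and of the 41 other intact V1R models had ranges of 1.67-, 1.68- and 1.64-fold. Their shares had ranges of 1.04-, 1.03- and 1.05-fold, each narrower than in this region.

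**Figure D3:**
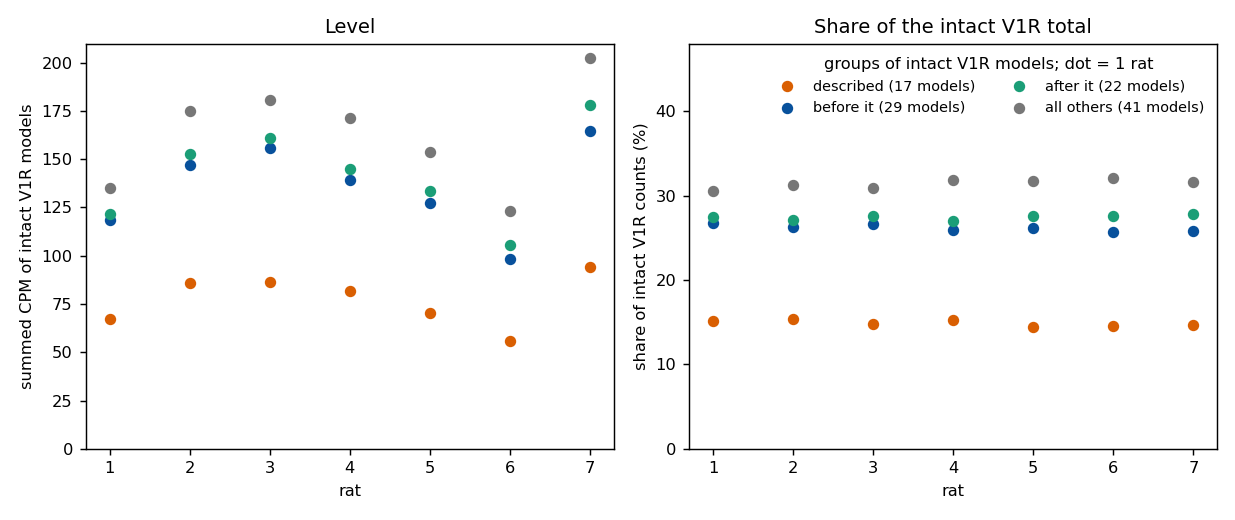
Summed CPM of intact V1R models in each rat (left) and their share of all intact V1R counts in percent (right), for the 17 models described, the groups before and after them on chromosome 1, and the 41 others. The level of the 17 models moves between 56.0 and 94.0 CPM while their share stays between 14.5% and 15.3%.

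Levels of single receptors were also less spread relative to the V1R total, to differing degrees. The coefficient of variation (CV) of CPM between rats had a median of 19.3% over the 16 detected intact models, from 13.6% to 33.7%. Expressed as a share of the rat's intact V1R counts, the CV had a median of 8.93%, and it was lower than that of CPM in 16 of 16 models. The fall was small in ENSRNOG00000031899 (from 25.2% to 22.9%) and large in ENSRNOG00000029034 (from 16.1% to 3.12%). Of these models 13 had their lowest CPM in rat 6, and 8 had their highest in rat 7, counts that depend on how the libraries are scaled. The equal-count models ENSRNOG00000038666 and ENSRNOG00000034260 enter both counts as separate models. Summed intact V1R levels of the other groups were also lowest in rat 6 and highest in rat 7. Because the 16 models are part of the total they were divided by, the fall of the CV is a description.

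The receptors differed in how steady their share was. ENSRNOG00000029034 varied least, with a CV of its share of 3.12% where counting error alone gives 4.81%. For the leading pair the CV was 5.93% in ENSRNOG00000029625 (counting 2.61%, and 3.15% without rat 6) and 4.39% in ENSRNOG00000033755 (counting 2.89%). ENSRNOG00000038647 and ENSRNOG00000031899, neighbours in the third block, varied most, with 23.2% and 22.9% (counting 13.8% and 13.7%). Each of these values rests largely on 1 rat: without rat 1 the CV of ENSRNOG00000038647 was 15.1%, and without rat 4 that of ENSRNOG00000031899 was 12.2%. ENSRNOG00000038647 had 24 counts in rat 1 against 36 to 73 elsewhere, and ENSRNOG00000031899 had 80 counts in rat 4 against 39 to 58 elsewhere. In 5 of the 16 models the CV of the share lay below counting error as taken from the mean count. Among them are ENSRNOG00000038666 and ENSRNOG00000034260, with the same values (8.54%, counting 8.91%). Their counts hold split reads, for which counting error is smaller than this, so that they cannot be placed below it. The same limit applies to ENSRNOG00000042371 (6.70%, counting 7.43%), which also held fractions.

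**Figure D4:**
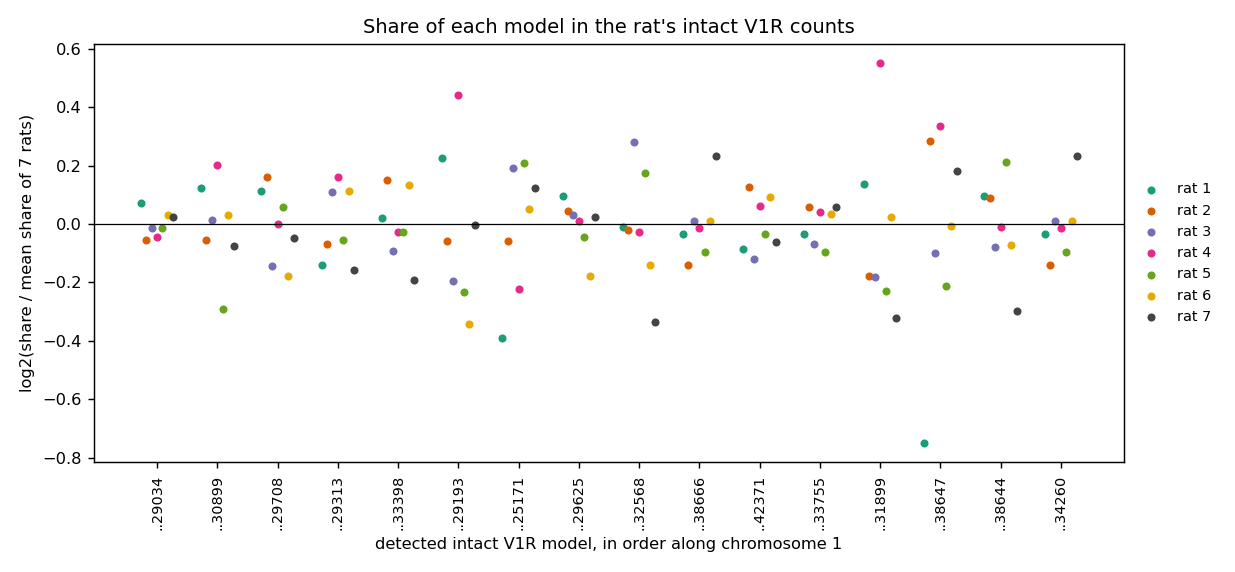
Share of each of the 16 detected intact models in the rat's intact V1R counts, as log2 of the share over its mean in 7 rats, in order along chromosome 1, with a colour per rat. Values of ENSRNOG00000029034 lie close to 0, and ENSRNOG00000038647 and ENSRNOG00000031899 show the widest spread.

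The biological coefficient of variation, which edgeR estimates as the part of the spread beyond counting error, had a median of 17.1% over the 16 detected intact models (12.2% to 28.6%). The median was 16.2% for the 86 detected intact V1R models outside the region and 10.5% for all 16670 detected models. The fitted trend over all models has a median of 21.6% at the levels of these receptors, and 3 of 16 lay above it (ENSRNOG00000029625, ENSRNOG00000033755 and ENSRNOG00000038647). The estimate for each model is drawn toward this trend by the fit. How many of all detected models, or of the V1R models outside, lay above the trend was not counted, so that 3 of 16 is no trait of this region. Without rat 6, which had the lowest V1R level, the median of the 16 was 15.1%. No test was made, since there is a single group.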

How the data were processed

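The values are estimated counts per gene model, deposited by the authors as 1 file per rat. Per the labels' protocols, the libraries were made with a TruSeq kit and sequenced on a HiSeq2500 as stranded single-end reads of 100 nucleotides. STAR 2.7.1a and featureCounts 1.6.5 are named in the submitters' processing notes (the headers give version 1.6.3). Per the file headers, reads were counted on exons (strand setting 2, overlap of at least 1 base, minimum mapping quality 0) of Ensembl release 67 on RGSC3.4 as extended by the authors, with multiply mapped reads split into fractions. Coordinates are those of the files.

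CPM and RPKM were computed here from these counts. Models named in the text are the 6 highest, the lowest, isolated, undetected and equal-count intact members and the 5 highest pseudogenes, and others by mean and SD or in a comparison of neighbours. The members and lists were chosen with earlier results of these data known. The labels do not say how the 7 rats were housed or bred, and p-values measure the spread between these animals. Dispersions came from edgeR 4.0.16 in R 4.3.3 (intercept-only model, TMM factors, counts rounded to whole numbers), with DESeq2 1.42.0 size factors as an alternative. Python 3.11.15 with scipy 1.17.1 did the rest. The steps were tested on simulated data. The gene table given for names (47357 genes) matched 0 of the 33 members and 0 identifiers of the annotation, so that the tissue label could not be checked against cell type markers, V1R pathway genes were not counted and no sequence is printed.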

Additional observations from a re-analysis of the deposited data

Results flagged for a closer look

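Dixon's test for a lone extreme rat (critical value 0.568 for 7 samples) was run on 40 values, and 3 passed it. Chance flags about 1 in 20 such values. ENSRNOG00000031899 had 1.19 CPM in rat 4 against 0.589 to 0.776 CPM elsewhere, a gap of 0.687 of the whole range. The share of intact V1R counts credited to ENSRNOG00000038666 reached 0.412% in rat 7 against 0.318% to 0.353% elsewhere, a gap of 0.625. The same share of ENSRNOG00000034260, which has equal counts in every rat, is the same value (0.412%) and no separate observation.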

How the results depend on the processing

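With each rat left out, the counts detected stayed at 16 and 2, the members' share of all counts lay at 0.00746% to 0.00809%, and their share of intact V1R counts at 14.83% to 14.98%. The highest member exceeded the second by 0.24 to 0.30 (log2, exact permutation p = 0.0312, the floor for 6 rats). Neighbours by position that differed numbered 11 to 12 of 15. Neighbours in order of level that differed numbered 0 to 0 of 15, since 7 pairs at the smallest p that 6 rats allow cannot pass after adjustment. The median biological CV lay at 15.1% to 17.96%, with 15.1% without rat 6.

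Restricted to models with whole counts in all rats, 8 of 9 intact models and 0 of 12 pseudogenes were detected. The share of all counts was then 0.00529% and that of intact V1R counts 38.9%. Of the neighbours, 6 of 7 by position and 5 of 7 in order of level differed. Fewer models enter these sums and pairs. Without the 10 most abundant models in the total the share of all counts was 0.0142%, and without the highest member the share of intact V1R counts was 11.3%, both by construction. The median CV was 18.7% with no filter on low counts (the cause was not tested), 19.3% as SD over mean of CPM and 8.93% as share of intact V1R counts.

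A count is said to have moved where it changed by over 1.5 times, and another value where it changed by over 1 SD between rats (for the median biological CV, over the SD of its values with each rat left out; for the CV of a share, over 1.5 times). By this rule 18 alternative values for these results moved and 70 did not. Of those for the levels of named members 11 moved and 115 did not. The 11 were all without the 10 most abundant models, a setting that raised every named level by a similar factor, also where the SD was larger (NG_Vom1rn-ps25 from 0.0326 to 0.0608 CPM). The CV of a share moved in 5 values, those given for 3 models in the report and 4.20% without rat 7 for ENSRNOG00000038666 and ENSRNOG00000034260, and not in 107. None reversed. Neighbours by position, the pseudogenes' comparison with intact neighbours, summing the equal-count pair (7 of 14 neighbours in order differed), leaving out the highest member, a mean of at least 100 counts for the CV, the CV of shares with a rat left out and alternatives for single levels were chosen after seeing the data. Differences between models were paired within each rat throughout. Depth limits the detected intact models under 1 CPM, which had as few as 15.5 counts in a rat, and more so the models that were not detected.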
